A study of Mus musculus with 2 samples.

Results

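Cajal-Retzius cells were taken from single-cell transcriptomes of mouse cortex at postnatal day 5. They were 94 of 21126 kept barcodes, a barcode being the tag that the 10x Genomics droplet platform gives to the RNA of 1 droplet. Of these, 44 came from 10102 barcodes of a library of Katnal2 mutant cortex (Mut) and 50 from 11024 barcodes of a library of wild-type cortex (WT). Kept barcodes had 1000 or more unique molecular identifiers (UMIs, counted transcripts), 500 or more genes and no more than 20% of UMIs from the mitochondrial genome. A barcode was taken as Cajal-Retzius when it held at least 2 UMIs of Reln and at least 1 UMI of 2 or more of Trp73, Lhx1, Lhx5, Ebf3 and Cacna2d2. The barcodes were thus chosen by the UMI counts of those 6 genes, whose levels are given as a description. Katnal2 is related to katanin, an enzyme that cuts microtubules, and the title of the study links its mutation with hydrocephalus and ependymal cells. Per the labels, cortex was dissociated with trypsin and then collagenase, strained and sorted by flow cytometry before loading. The labels do not state the sorting gate, the part of Katnal2 that is mutated, the strain or the sex of the animals. Although 3 replicates are mentioned in the design, the tables used here do not tie barcodes to animals, so each genotype counted as 1 sample. No difference between Mut and WT could therefore be tested, all intervals are 95% and cover counting error only, and library and genotype cannot be told apart.

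Cajal-Retzius cells are among the earliest-born neurons of the cortex and lie in its outermost layer. They secrete reelin, a large extracellular protein that binds the receptors Vldlr and Lrp8 on migrating neurons and leads there to phosphorylation of Dab1, a step needed for the layering of the cortex. In the mouse they arise from several sources at the edge of the pallium, among them the cortical hem and the septum, spread over the cortical surface and are mostly lost in the weeks after birth. Trp73 is a transcription factor of the p53 family that marks the cells from hem and septum, Lhx1 and Lhx5 are LIM-homeodomain factors, Ebf3 is a helix-loop-helix factor, and Cacna2d2 is an auxiliary subunit of voltage-gated calcium channels.

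The windows around 3 transcription starts are shown because they belong to 1 rule gene, Lhx1, and to 2 of the leading genes of the profile described here, Nhlh2 and Snhg11. The start windows come from RefSeq on GRCm38.p6 and run from 250 bases before to 50 bases after an annotated start, read on the gene's strand. The Lhx1 window is chr11:84525485-84525784 on the minus strand. Capitals in it mark the 124 bases between the GENCODE starts of Lhx1 and Lhx1os, a long non-coding RNA transcribed in the opposite direction (84525536 to 84525659). The windows of Nhlh2 (chr3:102009895-102010194, plus strand) and Snhg11 (chr2:158375463-158375762, plus strand) have the E-box CAGCTG in capitals, 1 copy each, a motif that helix-loop-helix factors are known to bind.
Lhx1: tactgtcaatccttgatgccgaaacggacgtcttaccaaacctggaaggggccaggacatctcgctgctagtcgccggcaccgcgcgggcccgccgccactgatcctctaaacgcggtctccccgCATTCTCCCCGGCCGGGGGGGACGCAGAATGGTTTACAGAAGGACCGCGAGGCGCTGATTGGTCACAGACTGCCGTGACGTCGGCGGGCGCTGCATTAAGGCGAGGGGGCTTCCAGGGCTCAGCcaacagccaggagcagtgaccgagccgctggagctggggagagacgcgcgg
Nhlh2: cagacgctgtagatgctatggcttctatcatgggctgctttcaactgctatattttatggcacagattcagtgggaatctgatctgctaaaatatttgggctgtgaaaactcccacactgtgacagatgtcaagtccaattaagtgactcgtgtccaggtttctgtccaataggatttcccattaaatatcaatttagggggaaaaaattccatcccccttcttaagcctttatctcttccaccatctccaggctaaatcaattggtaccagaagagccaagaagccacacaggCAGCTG
Snhg11: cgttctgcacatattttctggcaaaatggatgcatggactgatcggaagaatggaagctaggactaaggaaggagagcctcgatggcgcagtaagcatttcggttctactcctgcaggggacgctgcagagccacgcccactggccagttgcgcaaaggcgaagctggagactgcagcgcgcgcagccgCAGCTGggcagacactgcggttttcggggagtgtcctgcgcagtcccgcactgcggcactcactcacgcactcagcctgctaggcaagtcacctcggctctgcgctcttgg
The E-box starts at base 295 of the Nhlh2 window and base 190 of the Snhg11 window, with the annotated start at base 251. Windows were found for 31 of 36 genes, the 6 rule genes and the 30 leading genes of the profile. CAGCTG, which reads the same on both strands, was present in windows of 5 of the 31 (16.1%): Trp73, Snhg11, Nhlh2, Eef1a2 and Mgat4c. Among all 27025 genes with a window the share was 18.3%, so the motif was about as common in these genes as elsewhere.

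The Cajal-Retzius barcodes held 396071 UMIs in Mut and 568820 in WT, which were 0.448% and 0.673% of the UMIs of the kept barcodes. Their median depth was 9116 UMIs in Mut (1112 to 22263) and 11761 UMIs in WT (1215 to 29680), with medians of 3543.5 and 3951 genes and of 2.73% and 3.10% mitochondrial UMIs. All kept barcodes had medians of 7625.5 UMIs in Mut and 6446 UMIs in WT. Of all kept barcodes, 39 barcode names occurred in both libraries. Barcodes with Xist and no Y-linked UMI were called female and the reverse male. By that call 65.6% of the assigned kept barcodes were female in Mut and 47.3% in WT. Among the assigned Cajal-Retzius barcodes 64.7% were female in Mut (22 of 34; 46.5 to 80.3%) and 27.5% in WT (11 of 40; 14.6 to 43.9%), so sex moves with genotype in every Mut to WT comparison here. Values for female and male barcodes are given beside some of these comparisons.

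Katnal2 itself was at the edge of detection. The Cajal-Retzius barcodes held 0 Katnal2 UMIs in Mut and 1 in WT, and 3 counts, the limit that a count of 0 allows, would be 7.57 CPM in Mut (CPM, UMIs per 1000000 UMIs of the summed barcodes). Over all kept barcodes Katnal2 had 4.82 CPM in Mut and 3.87 CPM in WT. Which bases of Katnal2 are changed is not given, so the counts do not check the genotype labels.

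Reln was well above its threshold in nearly all of the chosen barcodes. It had 2 to 120 UMIs per barcode in Mut (median 44.5) and 2 to 140 in WT (median 40.5). Cacna2d2 was present in 43 of 44 barcodes in Mut and in 49 of 50 in WT, with medians of 6 and 7.5 UMIs. Trp73 was detected in 34 of 44 barcodes in Mut (77.3%, 62.2 to 88.5%) and 47 of 50 in WT (94.0%, 83.5 to 98.7%). Lhx1 was found in 33 and 46 barcodes, Ebf3 in 33 and 41, and Lhx5 in 25 and 29, each with medians of 1 or 2 UMIs. All 5 of the other rule genes were present in 17 barcodes of Mut and 24 of WT, and exactly 2 of them in 9 barcodes of Mut and 4 of WT. The detection of the 4 transcription factors depends on depth, which was lower in Mut. With 2000 UMIs drawn from each barcode that had as many (39 in Mut, 48 in WT), Trp73 was detected in 43.6% in Mut (27.8 to 60.4%) and 47.9% in WT (33.3 to 62.8%), whose intervals overlap. Reln was then detected in 39 of 39 and 47 of 48.

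**Figure D1:**
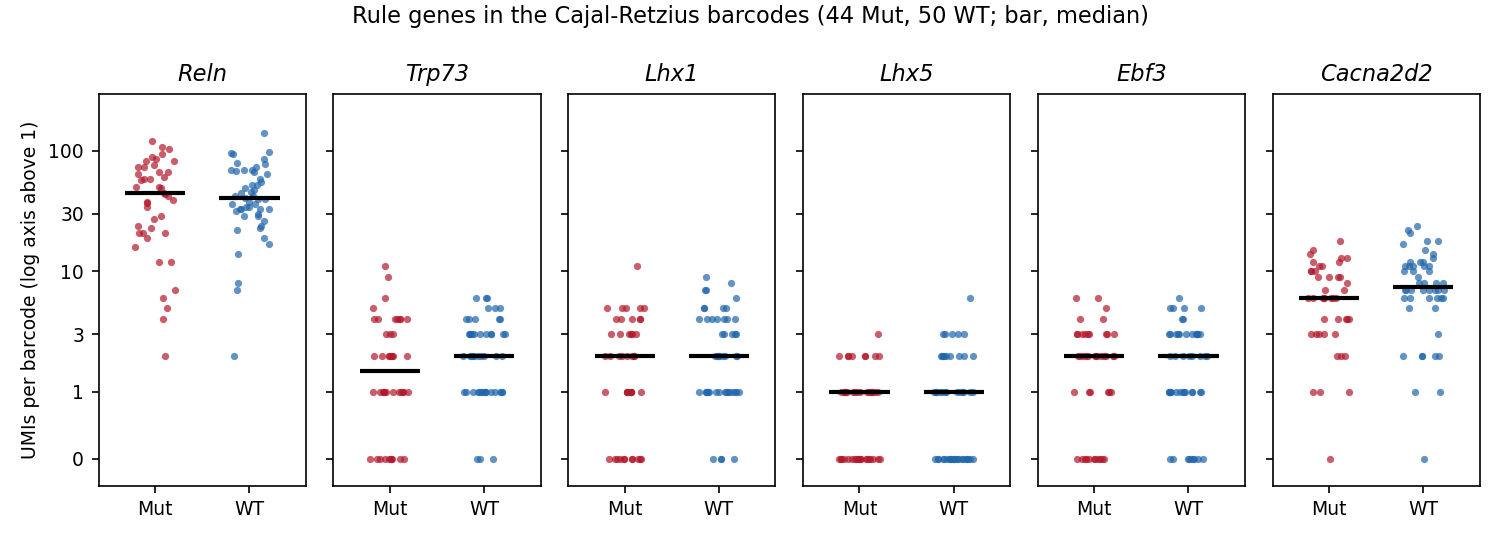
UMIs per barcode of the 6 genes used to choose Cajal-Retzius barcodes, in 44 Mut and 50 WT barcodes (log axis above 1). Each point is 1 barcode and the bar is the median. Reln medians are 44.5 and 40.5 UMIs, and Trp73, Lhx1, Lhx5 and Ebf3 are at 0 to 11 UMIs in both libraries.

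Values just inside and just outside the threshold were as follows. Inside it, Reln had only 2 to 4 UMIs in 2 barcodes of Mut and 1 of WT. Outside it, Reln at 1 UMI with at least 2 of the other rule genes was seen in 2 barcodes of Mut and 0 of WT. A further 9 barcodes of Mut and 7 of WT had at least 2 Reln UMIs and exactly 1 of the other rule genes, and 7 and 5 of these held Ndnf. Reln without any of the 5 was seen in 21 barcodes of Mut and 9 of WT, of which 18 and 7 carried at least 3 markers of a glial, vascular, immune or ependymal list.

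Markers of other cell types were looked for in the same barcodes. At least 3 markers of a glial, vascular, immune or ependymal list were present in 11 of the 44 Mut barcodes and in 9 of the 50 WT barcodes. The astroglia list was reached by 6 barcodes in Mut and 7 in WT, the endothelium list by 4 and 0, the oligodendrocyte lineage list by 3 and 1, and the microglia and macrophage list by 1 and 1. The mural and fibroblast lists were each reached by 0 and 1 barcodes, the ependyma and choroid plexus list by 0 and 0, and the dividing-cell list by 2 and 2. A doublet caller marked 4 of these barcodes in Mut and 9 in WT, of which 4 and 5 were among those with other markers. The summed level of the endothelium list was 543 CPM in Mut and 142 CPM in WT, and 163 and 152 CPM without those 11 and 9 barcodes. For the microglia and macrophage list these sums were 399 and 202 CPM, and 11.4 and 9.8 CPM without them. For the astroglia list they were 270.1 and 577 CPM, and 140.3 and 123 CPM without them. The oligodendrocyte lineage list summed to 308 and 107 CPM, and 114 and 83.3 CPM without them. The mural, fibroblast and ependyma lists summed to 93.4, 139 and 15.1 CPM in Mut, and 80.9, 87.9 and 7.03 CPM in WT. Acta2 and Higd1b of the mural list, Col3a1, Dcn and Lum of the fibroblast list and Ccdc153, Tmem212, Folr1 and Kcne2 of the ependyma list were at 0 in both. Values "without mixed barcodes" below leave those 11 and 9 out, which keeps 33 barcodes in Mut and 41 in WT. The neuron and dividing-cell lists were not used for this.

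Beyond the genes that chose them, the barcodes shared a profile that set them apart from the other neurons of the same libraries. Other neurons were kept barcodes outside the rule with at least 3 markers of a GABAergic or an excitatory neuron list and under 3 of every glial, vascular, immune and ependymal list. There were 992 in Mut and 1496 in WT, of which 964 and 1475 met the GABAergic list, with medians of 4259.5 and 3770 UMIs. Of 3543 genes with at least 50 UMIs over the Cajal-Retzius barcodes of both libraries, 361 were at least 4-fold above other neurons in Mut and in WT (10.2%). These 361 include the 6 rule genes, which leaves 355. Since related genes chose the barcodes, these counts describe the cells and test nothing. Nearly all of the other neurons met the GABAergic list, and only 28 in Mut and 22 in WT met the excitatory list. A gene that glutamatergic neurons share can therefore be past 4-fold as well. All fold counts use log2 ratios with 10 CPM added to each level. With 2000 UMIs drawn per barcode, the median number of genes was 1264 in Mut and 1240.5 in WT Cajal-Retzius barcodes, against 1184 and 1146 in other neurons.

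Ndnf, which encodes a secreted neurotrophic factor, led the profile. Its level was 2939 CPM in Mut and 2695 CPM in WT, against 4.04 and 2.7 CPM in the other neurons of Mut and WT. It was detected in 44 of 44 barcodes in Mut and in 49 of 50 in WT. These barcodes held 56.3% and 68.7% of the Ndnf UMIs of all kept barcodes, so it was also present outside them. Snhg11, a small nucleolar RNA host gene known to be abundant in neurons, stood at 6741 CPM in Mut and 5568 CPM in WT, against 45.4 and 7.34 CPM in the other neurons of Mut and WT. The chemokine Cxcl12, which in the mouse is known from the meninges to hold Cajal-Retzius cells at the surface, was at 901 CPM in Mut and 733 CPM in WT, against 2.42 and 1.8 CPM in the other neurons of Mut and WT. Nhlh2, a neuronal helix-loop-helix factor, had 709 CPM in Mut and 589 CPM in WT, against 0.808 and 0.45 CPM in the other neurons of Mut and WT, and it was detected in 32 and 47 barcodes. Of the 12 other genes listed as known for Cajal-Retzius cells, 8 had at least 30 UMIs, and 8 of those 8 were at least 4-fold above other neurons in both libraries. Over all genes with at least 30 UMIs that share was 7.39%, and related genes chose the barcodes. Those 8 are Ndnf, Snhg11, Nhlh2, Calb2, Nr2f2, Tbr1, Tmem163 and Barhl2. Eomes, which is on the same list, had 0 UMIs in both libraries.

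Ramp1, an accessory subunit of the calcitonin gene-related peptide receptor, had 1247 CPM in Mut and 1449 CPM in WT, against 18.6 and 17.5 CPM in the other neurons of Mut and WT. The natriuretic peptide Nppc had 308 CPM in Mut and 323 CPM in WT, against 2.22 and 0.899 CPM in the other neurons of Mut and WT. The growth factor Pdgfa had 311 CPM in Mut and 339 CPM in WT, and the Wnt modulator Dkk3 had 298 CPM in Mut and 281 CPM in WT. Ramp1 and Dkk3 were also common outside neurons. All kept barcodes outside the rule held 239 and 255 CPM of Ramp1 and 68.3 and 66.2 CPM of Dkk3 in Mut and WT. The Cajal-Retzius barcodes held 2.29% and 3.70% of the Ramp1 UMIs of all kept barcodes, and 1.92% and 2.80% of those of Dkk3. Angpt1, a ligand of the endothelial receptor Tek, had 479.7 CPM in Mut and 279.5 CPM in WT, against 2.42 and 1.65 CPM in the other neurons of Mut and WT. The surface glycoprotein Cd200, a ligand of a receptor on myeloid cells, had 788 CPM in Mut and 744 CPM in WT, against 22.01 and 19.3 CPM in the other neurons of Mut and WT. Cacna2d1, another auxiliary calcium channel subunit, had 649 CPM in Mut and 663 CPM in WT, against 13.7 and 9.89 CPM in the other neurons of Mut and WT. Lhx1os, whose start lies beside that of Lhx1, had 245 CPM in Mut and 237 CPM in WT, against 0.404 and 0.3 CPM in the other neurons of Mut and WT, while Lhx1 had 247 CPM in Mut and 236 CPM in WT and 0 CPM in other neurons. Nrn1, Nr2f2, Clstn2, Tmem163, Fibin, Npnt, Mia, Chchd10, Fat3, Ache, Syn2, Slc17a6, Eef1a2, Cntnap2, Mgat4c, Pcsk1n, Rbms1 and Ppp2r2c complete the 30 leading genes. Each of the 30 was above its level in free RNA (barcodes of 10 to 100 UMIs) and had a UMI in at least 20% of the barcodes of each library.

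**Figure D2:**
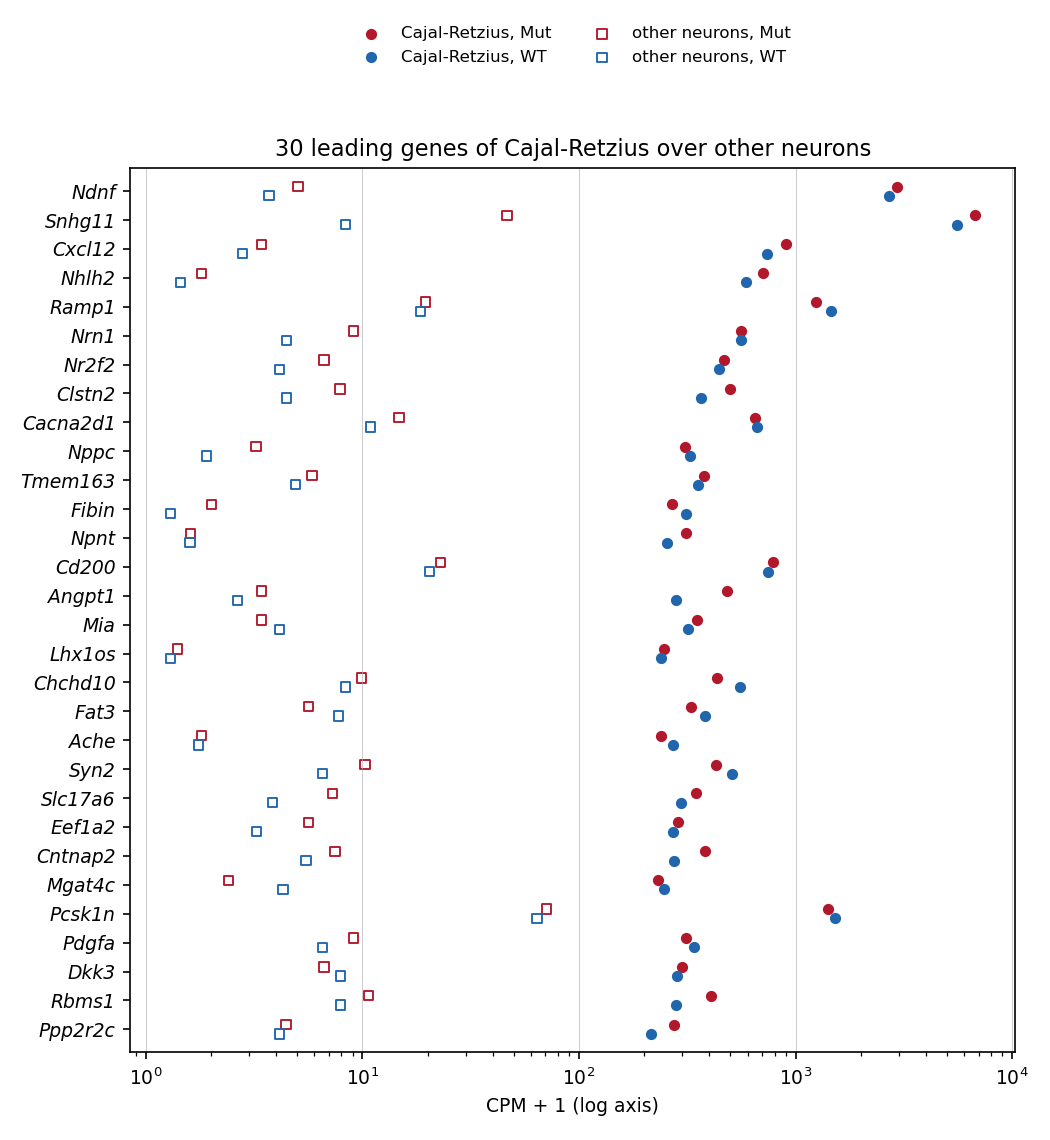
Level of the 30 leading genes in Cajal-Retzius barcodes (filled circles) and other neurons (open squares) of Mut and WT, as CPM + 1 on a log axis. Mgat4c, among the lowest, lies at 229.8 and 246 CPM, and Ndnf, which leads the profile, is at 2939 and 2695 CPM against 4.04 and 2.7 CPM.

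Of the transmitter genes, a glutamate transporter was present in most barcodes and the enzymes of GABA synthesis in few. Slc17a6, a vesicular glutamate transporter, had 346 CPM in Mut and 295 CPM in WT, against 6.26 and 2.85 CPM in the other neurons of Mut and WT, and was detected in 34 of 44 and 41 of 50 barcodes. The other neurons that met the excitatory list (28 in Mut, 22 in WT) held 154 and 139 CPM of it. Gad1 or Gad2, which make GABA, were detected in 1 and 3 barcodes, and in 0 of 33 and 2 of 41 without mixed barcodes, where 0 of 33 allows a share of up to 9.09%. That set was not cleared of GABAergic markers, and WT barcodes with 3 and 6 of them stayed in it. Of the neurotransmitter identity list, 1 of 12 genes had at least 30 UMIs, and 4 had 0 UMIs in both libraries. Neurod1, Neurod2, Neurod6 and Fezf2, markers of cortical projection neurons, had 0 UMIs in both libraries. Bhlhe22, which carried nearly all UMIs of the excitatory list, had 111 CPM in Mut and 116 CPM in WT, against 12.3 and 3.0 CPM in the other neurons of Mut and WT. The GABAergic list summed to 20.2 CPM in Mut and 56.3 CPM in WT, against 3771 and 3535 CPM in other neurons, and 1 and 3 Cajal-Retzius barcodes had at least 3 of its markers.

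Among regional transcription factors, Emx2 was far above other neurons and Zic1 was close to them. Emx2, a factor of the dorsal and medial pallium, had 283 CPM in Mut and 223 CPM in WT, against 17.4 and 10.8 CPM in the other neurons of Mut and WT. It was the 1 gene past 4-fold of 6 measured on this list, beside 7.39% over all genes with at least 30 UMIs. Zic1, of a family known from septum and hem, had 131 CPM in Mut and 160.0 CPM in WT, against 101 and 109.6 CPM in the other neurons of Mut and WT, so its level did not set the cells apart from other neurons. At least 1 Zic gene was detected in 30 of 44 barcodes in Mut and 42 of 50 in WT, Emx2 in 29 and 40, both in 22 and 35, and neither in 7 and 3. Lmx1a, a defining factor of the cortical hem, and Dbx1, Emx1, Otx1, Lhx6 and Nkx2-1 had 0 UMIs in both libraries.

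Of the reelin pathway, the receptors and the adaptor were not above other neurons. The ligand was far above them, which the rule fixed in advance because Reln chose the barcodes. Reln had 5299.6 CPM in Mut and 4137 CPM in WT, against 9.89 and 4.5 CPM in the other neurons of Mut and WT. Barcodes with at least 4 microglia and macrophage markers, which should lack the gene, had a Reln UMI in 1.5% of 602 in Mut and 0.694% of 576 in WT, at median depths of 6618 and 5645.5 UMIs. The receptor Vldlr had 12.6 CPM in Mut and 8.79 CPM in WT, against 33.3 and 33.0 CPM in the other neurons of Mut and WT. The other receptor, Lrp8, had 116 CPM in Mut and 100.2 CPM in WT, against 176 and 148 CPM in the other neurons of Mut and WT. Dab1, the adaptor that both receptors act through, had 10.1 CPM in Mut and 21.1 CPM in WT, against 20.6 and 26.5 CPM in the other neurons of Mut and WT. It rested on 4 and 12 UMIs, and Vldlr was likewise under the 30 UMIs used for the lists. Of 15 genes of reelin processing and reception 3 had at least 30 UMIs, and 0 of them was past 4-fold over other neurons. Adamts2, Adamts3, Adamts4 and Adamts5, members of the protease family that cleaves reelin, had 0 UMIs in both libraries. Of 19 genes of signal transduction 15 were measured and 0 was past 4-fold. Both counts stand beside a share of 7.39% over all genes with at least 30 UMIs, so with so few genes they set neither list apart.

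Genes of migration, guidance and excitability included members well above other neurons. Of 9 measured chemokine and migration genes 3 were past 4-fold: Cxcl12 and the adhesion molecules Cdh4 and L1cam. The chemokine receptor Cxcr4, which binds Cxcl12, had 42.9 CPM in Mut and 68.6 CPM in WT, against 7.27 and 3.75 CPM in the other neurons of Mut and WT, and was past 4-fold in WT but not in Mut. Among receptors of guidance cues 3 of 11 were past 4-fold, and of 3 measured guidance ligands 1. Plxnd1, a semaphorin receptor, had 121 CPM in Mut and 98.4 CPM in WT, against 1.21 and 0.899 CPM in the other neurons of Mut and WT. Robo2, a Slit receptor, did not reach 4-fold, with 538 CPM in Mut and 503 CPM in WT, against 206 and 199 CPM in the other neurons of Mut and WT. Past 4-fold were also 6 of 16 voltage-gated channel genes, 8 of 21 of synaptic vesicle release, 2 of 6 glutamate receptor genes and 1 of 7 GABA and glycine receptor genes, beside 7.39% over all 5292 genes with at least 30 UMIs. Kcnh7, a potassium channel, had 381 CPM in Mut and 374 CPM in WT, against 31.1 and 33.9 CPM in the other neurons of Mut and WT. Syt1, the calcium sensor of synaptic vesicles, had 520.1 CPM in Mut and 482 CPM in WT, against 29.3 and 24.4 CPM in the other neurons of Mut and WT. Gria1, an AMPA receptor subunit, had 182 CPM in Mut and 186 CPM in WT, against 16.2 and 10.9 CPM in the other neurons of Mut and WT. Gap43, a protein of growing axons, had 2732 CPM in Mut and 2924 CPM in WT, against 181 and 161 CPM in the other neurons of Mut and WT.

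Peptide, chloride and survival genes gave a mixed picture. Their counts past 4-fold stand beside a share of 7.39% over all genes with at least 30 UMIs. Of 21 neuropeptide and hormone genes 7 were measured, 4 of them past 4-fold, and 11 had 0 UMIs in both libraries. Cck had 189 CPM in Mut and 149 CPM in WT, against 1.21 and 3.15 CPM in the other neurons of Mut and WT, and the granin Chgb had 641 CPM in Mut and 448 CPM in WT, against 34.7 and 30.9 CPM in the other neurons of Mut and WT. Npy, Sst and Vip, peptides of GABAergic interneurons, were among the 11 at 0. The chloride importer Slc12a2 had 20.2 CPM in Mut and 21.1 CPM in WT, against 31.1 and 25.8 CPM in the other neurons of Mut and WT, and the exporter Slc12a5 had 2 and 0 UMIs, so neither transporter was measured with enough counts to compare. Of 23 genes of apoptosis and survival 10 were measured. Diablo, a mitochondrial protein that promotes caspase activation, had 626 CPM in Mut and 763 CPM in WT, against 68.5 and 73.1 CPM in the other neurons of Mut and WT, 1 of 2 on that list past 4-fold. The neurotrophin receptor Ntrk2, the other, had 311 CPM in Mut and 229 CPM in WT, against 55.5 and 45.3 CPM in the other neurons of Mut and WT. Of 7 measured p53 family targets 1 was past 4-fold, Perp, with 37.9 CPM in Mut and 42.2 CPM in WT, against 1.82 and 0.3 CPM in the other neurons of Mut and WT. Perp rested on 15 and 24 UMIs, of which a single barcode held 40.0% in Mut and 29.2% in WT.

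Cajal-Retzius barcodes made up 0.436% of kept barcodes in Mut (0.317 to 0.584%) and 0.454% in WT (0.337 to 0.598%). The ratio of Mut to WT was 0.960, with a counting interval of 0.626 to 1.47 that holds 1. Among female barcodes the share was 0.419% in Mut (22 of 5248) and 0.288% in WT (11 of 3822), a ratio of 1.46 (0.677 to 3.33). Among male barcodes it was 0.435% in Mut (12 of 2757) and 0.681% in WT (29 of 4258), a ratio of 0.639 (0.297 to 1.29). Each of these intervals holds 1, and the opposite sides of the ratios rest on 11 to 29 barcodes.

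Reln was higher per UMI in Mut Cajal-Retzius barcodes, and the ratios of the other rule genes ran from 0.948 to 1.21. The summed level of Reln was 5299.6 CPM in Mut and 4137 CPM in WT, ratio 1.28, counting interval 1.21 to 1.36. The quartiles over barcodes were 3731 and 6262 CPM in Mut, against 2821 and 5702 CPM in WT, so the barcodes of both libraries overlapped widely. Without mixed barcodes the ratio was 1.37, among female barcodes 1.85 and among male barcodes 1.19. Reln was also higher in Mut in other neurons, as given under the other observations. Trp73 had 242 CPM in Mut and 213 CPM in WT (ratio 1.14, counting interval 0.862 to 1.5). Ebf3 had 212 CPM in Mut and 176 CPM in WT (ratio 1.21, counting interval 0.892 to 1.63). The intervals of Trp73 and Ebf3 hold both 1 and the Reln ratio of 1.28, so a contrast with Reln is not shown for them. Lhx1 had 247 CPM in Mut and 236 CPM in WT, Lhx5 88.4 CPM in Mut and 93.2 CPM in WT and Cacna2d2 755 CPM in Mut and 775 CPM in WT, with ratios of 1.05, 0.948 and 0.974. All of the 8 measured genes of the other Cajal-Retzius list were above 1, at a median log2 ratio of 0.24, against 49.1% of all genes measured. That list was chosen with earlier results of these data known, so the count describes the listed genes and tests nothing. Some of the 8 were close to 1, such as Nr2f2 at 1.06 (0.871 to 1.29). Among the 30 leading genes both directions occurred, with Snhg11 at 1.21 and Ramp1 at 0.861. Calb2, the calcium-binding protein calretinin, was the highest of the 8, at 1275 CPM in Mut and 767 CPM in WT (ratio 1.66, counting interval 1.46 to 1.9). Without mixed barcodes its ratio was 1.68, and in other neurons it was 0.997. For Calb2, the median barcode held 1027 CPM in Mut and 523 CPM in WT, and the highest barcodes held 5341 and 2555 CPM.

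Across the 3543 genes with at least 50 UMIs, 139 were at least 1.5-fold higher in Mut (3.92%) and 125 at least 1.5-fold lower (3.53%), around a median log2 ratio of -0.02. TMM scaling of the same sums gave 93 higher and 195 lower, so the split between directions depends on the scaling. Without mixed barcodes the same genes gave 200 higher (5.64%) and 206 lower (5.81%), of which 91 and 90 were also in the first counts. Small sums scatter by counting alone, and these counts name no gene as changed. Among the 1823 genes with at least 100 UMIs 34 were past 1.5-fold higher (1.87%) and 38 lower (2.08%), and the 12 highest and 12 lowest of these are described here.

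Of the 5 highest, 4 were carried by single barcodes. Ccl7 and Ccl2, chemokines of macrophages, had 120 and 118 UMIs in Mut, against 37 and 49 in WT. Pf4, another chemokine of macrophages, had 99 UMIs in Mut and 65 in WT. A single barcode held 97.5% of the Ccl7, 98.3% of the Ccl2 and 98.99% of the Pf4 UMIs in Mut, and 100% of the Ccl7, 98.0% of the Ccl2 and 100% of the Pf4 UMIs in WT. For Ier3, an immediate early gene, the share of 1 barcode was 81.6% in Mut and 78.4% in WT. Without mixed barcodes Ccl7 had 3 and 0 UMIs, Ccl2 1 and 1, Pf4 1 and 0, and Ier3 3 and 5. Barcodes of the microglia and macrophage class held 2557 and 1166 CPM of Ccl7. Xist, the fifth, is expressed from the inactive X chromosome, and more of the Mut barcodes were female. Its level was 760.0 CPM in Mut and 214 CPM in WT, and among female barcodes alone the ratio was 1.38.

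The remaining 7 higher genes were spread over many barcodes. Malat1, a long non-coding RNA kept in the nucleus, had 31280.0 CPM in Mut and 18431 CPM in WT (ratio 1.7, counting interval 1.65 to 1.74). For it the median barcode held 29884 CPM in Mut and 17812 CPM in WT, and other neurons had a ratio of 1.18. Kcnq1ot1, another nuclear non-coding RNA, had 611 CPM in Mut and 334 CPM in WT (ratio 1.83, counting interval 1.51 to 2.22), and 1.31 as its ratio in other neurons. Ogt, which adds N-acetylglucosamine to proteins in nucleus and cytoplasm, had 249.96 CPM in Mut and 142 CPM in WT (ratio 1.76, counting interval 1.3 to 2.38). Srrm3, a neuronal splicing regulator, had 172 CPM in Mut and 96.7 CPM in WT (ratio 1.78, counting interval 1.23 to 2.58). Both were near 1 in other neurons (1.0 and 0.955). Angpt1 had 479.7 CPM in Mut and 279.5 CPM in WT (ratio 1.72, counting interval 1.38 to 2.13). The receptor tyrosine kinase Kit had 149 CPM in Mut and 84.4 CPM in WT (ratio 1.77, counting interval 1.19 to 2.64). Their ratios in other neurons were 1.47 (0.594 to 3.68) and 1.55 (0.814 to 2.97), with intervals that hold 1. Pnoc, the precursor of the peptide nociceptin, had 172 CPM in Mut and 86.1 CPM in WT (ratio 1.99, counting interval 1.36 to 2.94), and without mixed barcodes 1.44 with an interval of 0.912 to 2.27. The 7 ratios ran from 1.29 (Kit) to 3.11 (Srrm3) among female and from 1.2 (Srrm3) to 1.97 (Kit) among male barcodes, and the intervals of Angpt1 and Kit held 1 in each sex. The share of mitochondrial UMIs, a sign of RNA quality, had medians of 2.73% in Mut and 3.10% in WT; its part in these ratios was not tested.

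Rpl29 and Gabra2 had the lowest ratios. Rpl29, a ribosomal protein gene (chr9:106429454-106431568), had 75.7 CPM in Mut and 668 CPM in WT (ratio 0.113, counting interval 0.0754 to 0.165), and was detected in 12 of 44 and 33 of 50 barcodes. It was also low in Mut outside these cells, with 189 and 754 CPM in other neurons of Mut and WT (ratio 0.25) and 394 and 879 CPM in the microglia and macrophage class. Its level is uncertain where reads are shared with near-identical copies, which was not tested. Gabra2, a subunit of the GABA-A receptor (chr5:70957597-71095849, minus strand), had 19 UMIs or 48.0 CPM in Mut, against 83 UMIs or 146 CPM in WT (ratio 0.329, counting interval 0.189 to 0.546). It was detected in 15 of 44 barcodes in Mut and 32 of 50 in WT, with at most 3 and 6 UMIs in 1 barcode. With 2000 UMIs drawn per barcode these shares were 12.8% (4.30 to 27.4%) of 39 and 27.1% (15.3 to 41.8%) of 48, whose intervals overlap. Its ratio was 0.319 without mixed barcodes, 0.406 among female and 0.229 among male barcodes. In other neurons, where it was at 9.49 and 9.44 CPM, the ratio was 1.01 (0.674 to 1.49).

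Of the other 10 low genes, Dcc and Syt4 have known roles in neurons. Dcc, the netrin receptor, had 60.6 CPM in Mut and 134 CPM in WT (ratio 0.454, counting interval 0.274 to 0.726), and 1.13 as its ratio in other neurons. Syt4, a synaptotagmin of secretory vesicles, had 83.3 CPM in Mut and 162 CPM in WT (ratio 0.515, counting interval 0.335 to 0.774), and 1.04 in other neurons. Tomm22, of the mitochondrial import pore, had 63.1 CPM in Mut and 165 CPM in WT (ratio 0.382, counting interval 0.235 to 0.599), and was lower in other neurons as well (ratio 0.457). Ftl1, the ferritin light chain, had 1144 CPM in Mut and 1995 CPM in WT (ratio 0.573, counting interval 0.513 to 0.64), with 27.9% of its WT UMIs in 1 barcode and a ratio of 0.657 without mixed barcodes. Its ratio was 0.249 among female and 0.755 among male barcodes. Fam32a, Mea1, Bloc1s2, Ubxn6, Zfp428 and Uba1 had ratios from 0.406 to 0.552 and from 0.339 to 0.606 without mixed barcodes, and from 0.824 to 1.11 in other neurons. Bloc1s2 is a subunit of the complex that forms lysosome-related organelles, and Uba1 is the main ubiquitin-activating enzyme.

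**Figure D3:**
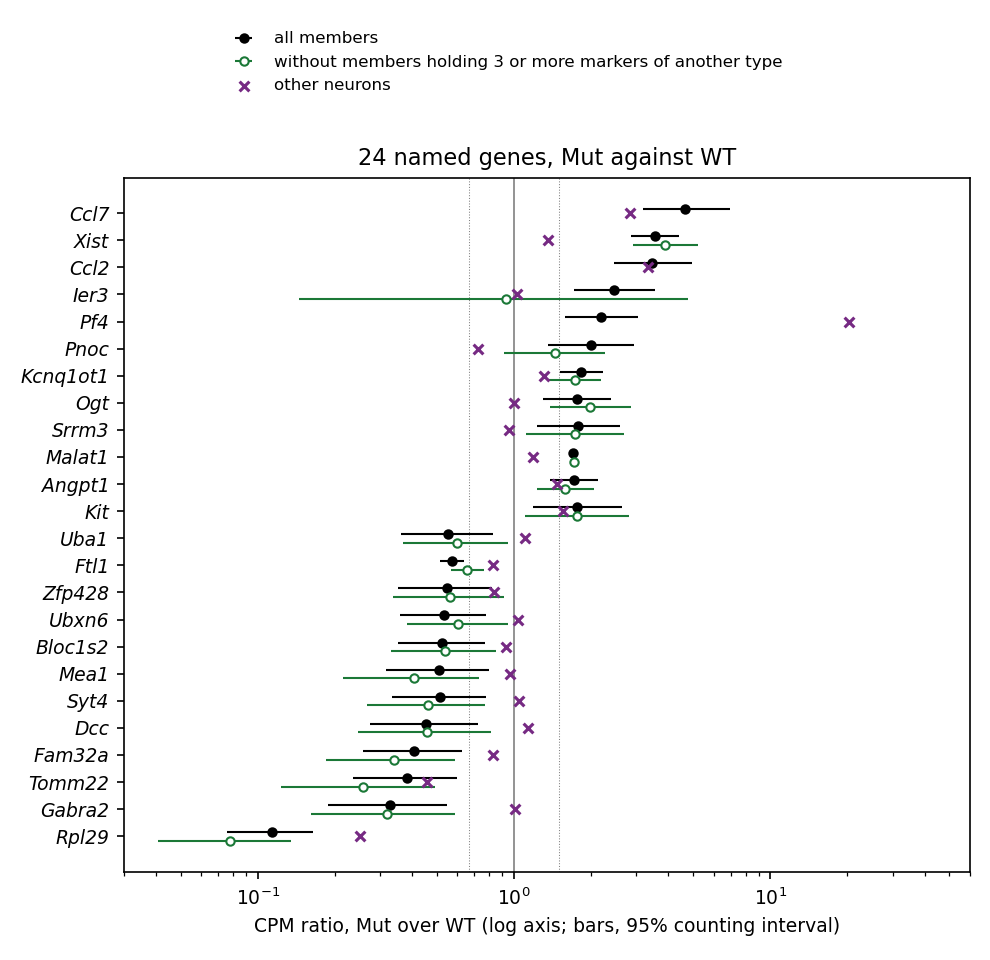
CPM ratio of Mut over WT for the 12 highest and 12 lowest genes, on a log axis with 95% counting intervals, in all Cajal-Retzius barcodes (filled), without mixed barcodes (open) and in other neurons (crosses). Ccl7, Ccl2 and Pf4 have no open point because at most 3 UMIs are left. Gabra2 lies at 0.329 and 0.319, beside 1.01 in other neurons, and the far cross of Pf4 rests on 3.03 and 0.15 CPM.

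Gene lists were described by the genes with at least 30 UMIs over both libraries. Of all 5292 such genes 49.1% were above a ratio of 1, 6.12% were at least 1.5-fold higher and 4.78% at least 1.5-fold lower, and the median log2 ratio was -0.01. Of 21 cholesterol synthesis genes 14 were measured, of which 2 were higher and 12 lower in Mut, at a median log2 ratio of -0.38. Idi1, which isomerises an isoprenoid building block, had 32.8 CPM in Mut and 65.0 CPM in WT (ratio 0.505, counting interval 0.246 to 0.971), and Cyp51 was the highest at 80.8 CPM in Mut and 63.3 CPM in WT. The median was -0.32 without mixed barcodes, -0.43 among female and -0.36 among male barcodes, and 0.19 in other neurons. Of the list 3 genes were past 1.5-fold downward (Idi1, Fdps and Mvk) and 0 upward. Fdps, which makes farnesyl pyrophosphate, had 124 CPM in Mut and 200.4 CPM in WT (ratio 0.617, counting interval 0.432 to 0.87), and Mvk, mevalonate kinase, 30.3 CPM in Mut and 51.0 CPM in WT (ratio 0.594, counting interval 0.276 to 1.2). The intervals of Idi1 and Fdps lie below 1 and that of Mvk holds 1. A single barcode held 27.2% of the WT UMIs of Fdps, and its ratio was 0.785 without mixed barcodes.

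Immediate early and stress genes were mostly lower in Mut Cajal-Retzius barcodes. Of 13 measured of 21, 2 were higher and 11 lower in Mut (median log2 ratio -0.21), against a median of 0.29 in other neurons. Egr1, a transcription factor induced by activity, had 11 UMIs in Mut and 50 in WT, with 58.0% of the WT UMIs in 1 barcode. The median was 0.06 among female and -0.55 among male barcodes. Cytosolic ribosomal protein genes gave 8 higher and 26 lower of 34 (median -0.11), and -0.14 in other neurons. Rpl38 was the highest at 1.58.

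Of the neuronal cytoskeleton list most genes were also lower in Mut. Of 21 neuronal cytoskeleton genes 17 were measured, of which 5 were higher and 12 lower in Mut (median -0.17, and -0.06 without mixed barcodes). The median was 0.0045 among female and -0.18 among male barcodes. Dpysl3, a collapsin response mediator, had 422 CPM in Mut and 647 CPM in WT (ratio 0.652, counting interval 0.54 to 0.785). The beta-tubulin Tubb2b had 2229 CPM in Mut and 3161 CPM in WT (ratio 0.705, counting interval 0.65 to 0.765), and Tuba1a, an alpha-tubulin, 4673 CPM in Mut and 5773 CPM in WT (ratio 0.809, counting interval 0.764 to 0.857). In other neurons their ratios were 1.1, 0.935 and 1.06. Map2, a dendritic microtubule-associated protein, was the highest at 1.05. Of 9 katanin family genes only Spast, the severing enzyme spastin, was measured, with 17 UMIs in Mut and 40 in WT (ratio 0.61, counting interval 0.324 to 1.1). Its ratio was 0.829 without mixed barcodes, 0.266 among female and 1.32 among male barcodes, so its direction turned between the sexes. The ratio of Dpysl3 was 1.04 among female and 0.433 among male barcodes.

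Receptors and channels divided between directions. Among GABA and glycine receptor genes 7 of 19 were measured, of which 3 were higher and 4 lower in Mut, and the median of -0.30 became 0.09 without mixed barcodes. Among glutamate receptor genes 6 of 22 were measured, of which 3 were higher and 3 lower in Mut. Gria2, an AMPA receptor subunit, was the highest at 311 CPM in Mut and 181 CPM in WT (ratio 1.72, counting interval 1.31 to 2.25), and its ratio without mixed barcodes was 1.81. Voltage-gated channels gave 8 higher and 8 lower of 16 measured of 38, and synaptic vesicle genes 9 higher and 12 lower of 21 measured of 27. Chloride transport genes gave 3 higher and 2 lower of 5 measured of 10. Slc17a6, the 1 measured transmitter gene, had a ratio of 1.17 (0.928 to 1.48). Neuropeptide and hormone genes gave 6 higher and 1 lower of 7 (median 0.32). Chgb had 641 CPM in Mut and 448 CPM in WT (ratio 1.43, counting interval 1.2 to 1.71), and Thra, a thyroid hormone receptor, was the 1 lower gene at 0.935.

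The remaining lists are given by their counts and medians. TMM scaling moved the median of a list by up to 0.0761 on the log2 scale, so medians nearer to 0 than this have no set direction. Leaving out mixed barcodes moved a median by up to 0.383, so medians farther from 0 can change sign as well. That of GABA and glycine receptors did, from -0.30 to 0.09. Reelin processing and reception gave 2 higher and 1 lower of 3, and reelin signal transduction 8 higher and 7 lower of 15 (median 0.06). Endosome and secretory trafficking, which the study's title names, gave 13 higher and 18 lower of 31 measured of 37 (median -0.01). Rab8a, a small GTPase of vesicle transport, was its highest at 1.6 (0.917 to 2.79). Cell polarity genes gave 2 higher and 5 lower of 7 measured of 22 (median -0.05), the lowest being Pard6a, of the Par polarity complex, at 0.574 (0.324 to 0.983). Chemokine and migration genes gave 6 higher and 3 lower of 9 measured of 19, guidance receptors 6 and 5 of 11 measured of 26, and guidance ligands 0 and 3 of 3 measured of 21. Regional transcription factors gave 2 higher and 4 lower of 6 measured of 22 (median -0.19), and the 6 rule genes 4 and 2. Apoptosis and survival genes gave 5 and 5 of 10, and p53 family targets 4 and 3 of 7 measured of 14. The mitochondrial genome gave 6 and 6 of 12 measured of 13, and nuclear oxidative phosphorylation 15 and 15 of 30. Efnb2, Itgb1 and Cdh2 each stand on more than 1 list.

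**Figure D4:**
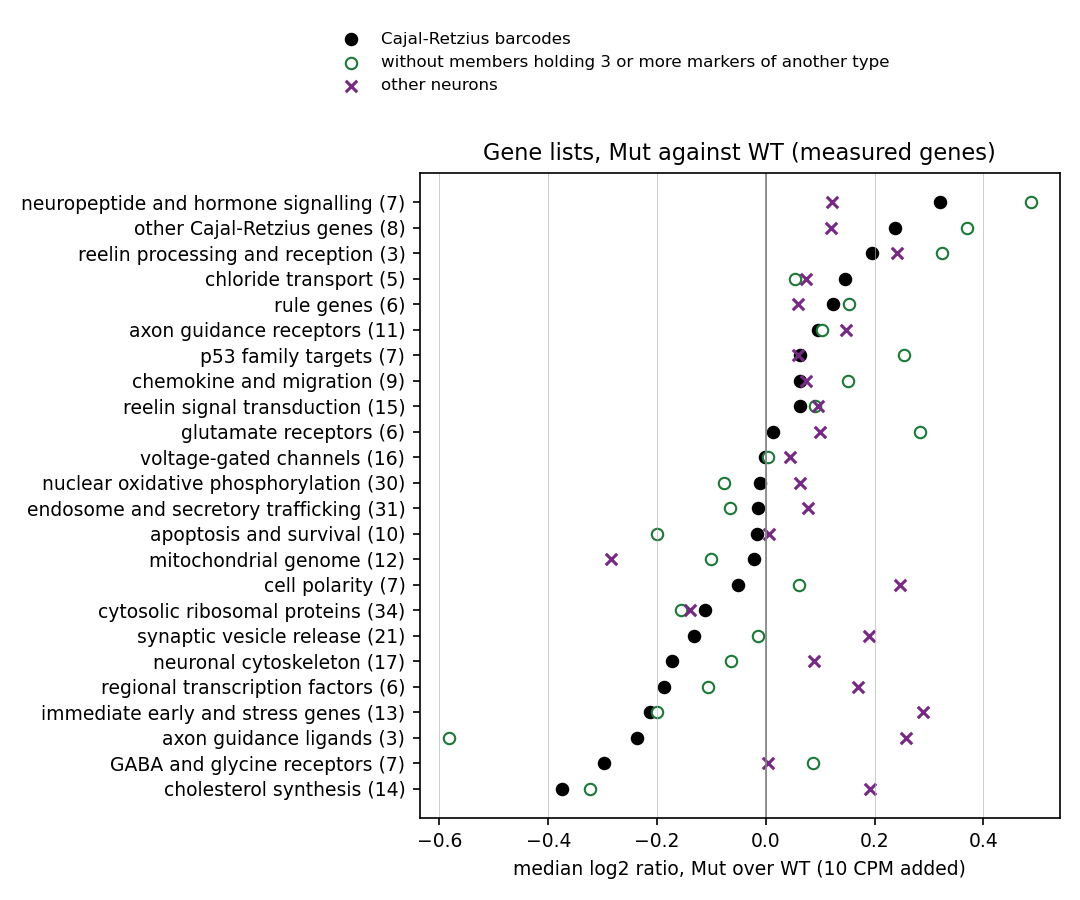
Median log2 ratio of Mut over WT for gene lists with at least 3 measured genes (number in brackets), in Cajal-Retzius barcodes (filled circles), without mixed barcodes (open circles) and in other neurons (crosses). Cholesterol synthesis is lowest at -0.38 and neuropeptide and hormone signalling highest at 0.32, while the other neurons are at 0.19 and 0.12.

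Marker lists of other types differed between the 2 libraries in these barcodes, and their part in the gene ratios was not tested beyond the values without mixed barcodes. Of 9 astroglia markers 6 were measured, of which 0 were higher and 6 lower in Mut. Microglia and macrophage markers gave 5 higher and 0 lower of 5 measured, oligodendrocyte lineage markers 2 and 0 of 2, endothelium markers 2 and 0 of 2, mural cell markers 1 and 0 of 1, fibroblast markers 1 and 1 of 2, and dividing-cell markers 2 and 2 of 4. The excitatory list gave 0 and 1 of 1, and the GABAergic and the ependyma and choroid plexus lists had 0 measured genes. Of the measured microglia and macrophage markers, C1qa, C1qb, Fcer1g, Tyrobp and Mrc1, 1 barcode held at least 87.5% of the UMIs in each library. Some listed markers were still present without mixed barcodes. Cspg4, a proteoglycan used to mark oligodendrocyte precursors and pericytes, kept 20 and 26 UMIs without mixed barcodes, Itm2a 33 and 53, and Cenpf, a kinetochore protein used as a cell-cycle marker, 47 and 92, while Mki67 kept 0 and 2.

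Genes of the Cajal-Retzius profile took a larger share of free RNA than of the kept barcodes. In free RNA (4649754 UMIs in Mut and 4740465 UMIs in WT) the 6 rule genes summed to 271 CPM in Mut and 221 CPM in WT. Over all kept barcodes they summed to 43.8 and 50.2 CPM, so free RNA was 6.19 and 4.4 times as rich. The same quotient was 0.58 and 0.561 for astroglia markers, 1.05 and 1.11 for GABAergic markers and 3.19 and 2.26 for excitatory markers. Reln alone had 195 CPM in free RNA of Mut and 166 CPM in free RNA of WT, over 29.5 and 32.3 CPM in kept barcodes. Its 909 and 789 free UMIs lay in 888 and 775 barcodes, with at most 3 and 2 in 1 barcode. Of the 36 genes that chose or lead the profile, 34 in Mut and 32 in WT were richer in free RNA than in kept barcodes (median quotients 2.85 and 1.90). Over all 3543 genes those medians were 0.942 and 0.885. Free RNA stood at a median of 6.35% in Mut and 5.14% in WT of the Cajal-Retzius level of these genes.

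**Figure D5:**
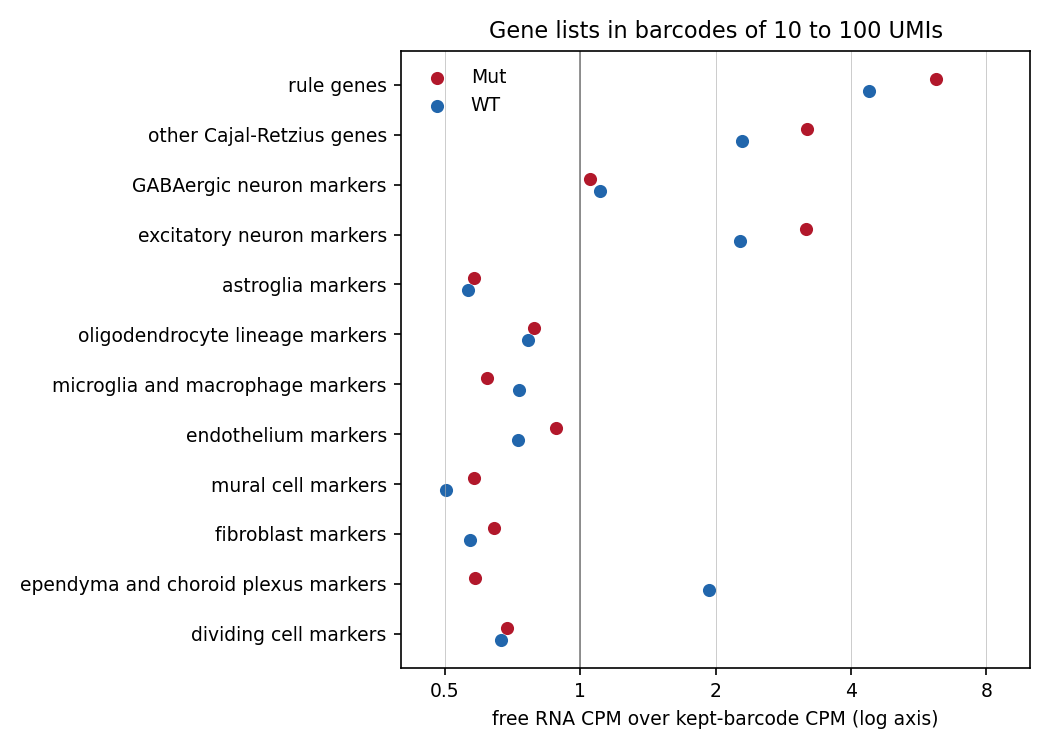
Summed CPM of gene lists in free RNA (barcodes of 10 to 100 UMIs) divided by the summed CPM over all kept barcodes of the same library, on a log axis, for Mut and WT. The rule genes lie furthest right, at 6.19 and 4.4, and astroglia markers lie at 0.58 and 0.561.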

How the data were processed

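The authors deposited raw UMI counts per gene and barcode, without called cells, for 1 Mut and 1 WT library. Cell Ranger 4 wrote the matrices, per the file headers. STAR and GRCm38 are also named, per the submitters' processing notes. The sources used here give neither annotation release nor kit chemistry. The deposited counts cover 32285 genes and 97891513 UMIs in Mut and 93664707 UMIs in WT. The barcodes, gene lists and markers were chosen with earlier results of these data known. UMIs of the chosen barcodes were summed per library and scaled to CPM, and 10 CPM were added for log2 ratios. With 1 library per genotype no test was made. Sums carry exact Poisson intervals, shares exact Clopper-Pearson intervals and ratios exact conditional binomial intervals, all at 95% and for counting error only. PCR duplicates are removed by UMIs, but molecules of 1 cell are not independent samples of a genotype.

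Scrublet (scanpy 1.11.5) scored doublets in each library. The highest-scoring 0.8% per 1000 barcodes, 816 in Mut and 972 in WT, were marked but kept. The automatic threshold would have marked 383 and 375. Thinning drew 2000 UMIs per barcode. Genes were named by rule: the 30 highest ratios over other neurons, taking the lower of both libraries, the 12 highest and 12 lowest Mut to WT ratios with at least 100 UMIs, and, per list, the highest and lowest ratio with at least 50 UMIs or the highest levels. Genes of a list named outside this rule, such as receptors, markers and genes at 0, were chosen after their values were seen. The fold rule and the ratio intervals were checked on simulated Poisson counts with known fold changes. The simulation had no spread between barcodes, no doublets and no library effects. It therefore checks the calculation and not the genes counted here. Alternatives were the doublet removal, mixed barcodes, stricter rules, other filters, sex, depth, the number added and TMM factors from edgeR 4.0.16 in R 4.3.3. Some genes of the lists are not reported here by name. GENCODE on GRCm38 gave gene positions for 32235 identifiers. Python 3.11.15, numpy 2.4.6, scipy 1.17.1, pandas 2.3.3 and matplotlib 3.10.9 were used.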

Additional observations from a re-analysis of the deposited data

Results flagged for a closer look

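Female and male Cajal-Retzius barcodes differed in direction for several named genes, a difference that was not tested. Of the genes named for their Mut to WT ratio, Pf4 and Ccl7 were past 1.5-fold on both sides, and Ccl2 had log2 ratios of -4.67 among female and 0.54 among male barcodes. The log2 ratio of Mut to WT of Pf4 was -5.75 among female and 0.91 among male barcodes. For Ccl7 it was -4.96 among female and 1.86 among male barcodes. Female barcodes held 0 Pf4 UMIs in Mut and 65 in WT, all 65 in 1 barcode, and male barcodes 1 and 0. Ccl7 had 0 and 37 UMIs in female barcodes, again in 1 barcode, and 3 and 0 in male ones. In Mut, 98 of the 99 Pf4 and 117 of the 120 Ccl7 UMIs lay in 1 barcode. It was called neither female nor male, so the ratios by sex leave it out. That Mut barcode and the WT barcode each held 8 microglia and macrophage markers and were marked as doublets. The opposite directions of these genes thus rest on 1 barcode per library.

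Medians of several gene lists lay on opposite sides of 0 in Cajal-Retzius barcodes and other neurons, also untested. The 4 lists that were farthest from 0 on both sides are given here. For cholesterol synthesis they were -0.38 and 0.19, and for immediate early and stress genes -0.21 and 0.29. For axon guidance ligands they were -0.24 and 0.26 over 3 genes, and for regional transcription factors -0.19 and 0.17 over 6.

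Data outside the comparisons held Cajal-Retzius signal. The rule genes were 6.19 times as rich in free RNA as in kept barcodes in Mut and 4.4 times in WT. Among barcodes of 100 to under 1000 UMIs, which the filter left out, 4 of 8743 in Mut (524 to 980 UMIs) and 1 of 7574 in WT (815 UMIs) met the same rule.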

How the results depend on the processing

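The share ratio of 0.960 moved to 0.594 among male barcodes without mixed ones and to 2.06 among such female barcodes, an alternative added after seeing the data with 10 and 26, and 17 and 6 barcodes. The Reln ratio of 1.28 was 1.37 without mixed barcodes, 1.85 among female, 1.19 among male and 1.77 among female barcodes without mixed ones, and stayed above 1 in each. The counts of 139 higher and 125 lower genes follow depth and filter. They were 28 and 35 after thinning to 2000 UMIs, 539 and 382 with at least 20 UMIs per gene and 34 and 38 with at least 100. Among female barcodes they were 86 and 64, and 65 and 36 without mixed ones. Among male barcodes 88 were higher, and 73 without mixed ones. TMM scaling gave 195 lower. The 355 genes past 4-fold over other neurons became 141 and 221 among female and male barcodes, 88 and 203 without mixed ones, and 80 after thinning. Fewer genes reach the filter in these subsets (1064, 1796 and 569 of 3543 for female, male and thinned). The other 43 of 67 values were within 1.5 times the reported count or inside the reported ratio's counting interval. Among them the share ratio was 1.46 among female and 0.639 among male barcodes, on opposite sides of 1. Medians of 22 of 26 lists kept their sign under TMM, and likewise 22 of 26 without mixed barcodes. No paired analysis was possible because each genotype has 1 library. Depth limits single genes: the interval of Spast, with 57 UMIs, ran from 0.324 to 1.1, so a 1.5-fold difference was not detectable for it.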

Other observations

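Snhg11, which ranks near the top of the Cajal-Retzius profile, also differed between the libraries in barcodes outside the Cajal-Retzius rule. Other neurons held 45.4 CPM in Mut and 7.34 CPM in WT (ratio 6.19, counting interval 4.52 to 8.61), beside a ratio of 1.21 in the Cajal-Retzius barcodes. Only 3.93% and 2.21% of the other neurons had a UMI of it, and how its UMIs were spread over them was not examined. Those of the excitatory list (28 of 992 in Mut, 22 of 1496 in WT) held 212 and 65.5 CPM. The level of Snhg11 in free RNA was 214 CPM in Mut and 137 CPM in WT. Reln in other neurons likewise had 9.89 and 4.5 CPM (ratio 2.2, 1.37 to 3.59), and 195 and 166 CPM in free RNA.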
